A study of Mus musculus with 8 samples.

Results

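The 9 genes described here, Esm1, Apln, Pdgfb, Unc5b, Cxcr4, Igfbp3, Adm, Mcam and Ramp3, are markers of endothelial tip cells. They were chosen by symbol, and all 9 were found among the 16109 genes of the deposited count table. The study sequenced poly(A) RNA of whole mouse retinas at postnatal day 5 to compare wild-type and C3 deficient animals while the retinal vessels grow. Both groups are C57BL/6 per the labels, with 4 libraries labelled WT (wild type) and 4 labelled C3 KO, meaning that C3, the central protein of the complement cascade, is knocked out. How the C3 allele was made, and whether a library pools animals, is not given in the labels. P-values therefore measure the spread between these libraries, which may be technical.

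Tip cells lead each vascular sprout. They extend filopodia towards vascular endothelial growth factor, restrain their neighbours through Delta-Notch signalling, and draw behind them stalk cells that proliferate and form the lumen. In the mouse retina the sprouts spread from the optic nerve across the inner surface during the first week after birth, guided by astrocytes and hypoxia, and tip cells lie at the advancing front. Other cells make some of these RNAs too: hypoxic neurons and glia can make Adm, pericytes carry Mcam, and microglia and neurons can carry Cxcr4. In whole-retina RNA, fewer tip cells and less RNA per tip cell cannot be told apart.

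The libraries held 16503564 to 19608824 counted reads. C3 itself went against the label: it had 33 to 55 reads in the libraries labelled WT and 1419 to 1718 in those labelled C3 KO. Every direction below is therefore the one from the WT label to the C3 KO label. An exchange of all labels, which would reverse each direction given here, and a targeted allele that is still transcribed cannot be told apart from these counts. Sex-linked RNA also moved with the labels. The mean level of 4 Y-linked genes was 0.448 to 5.05 CPM (the reads of a gene per library total, brought to one scale) in 3 libraries labelled WT and 74.8 to 88.2 CPM in those labelled C3 KO. Xist, an RNA of female cells, stood at 2194.8 to 2441.5 CPM in the same 3 libraries labelled WT and at 1.48 to 2.65 CPM in those labelled C3 KO. The library labelled WT replicate 3 stood apart at 75.8 CPM of Y-linked RNA together with 295 CPM of Xist, between these 2 ranges.

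The retina was recognisable by its defining genes, since 12 of 12 listed markers of retinal neurons and progenitors were in the table and none was at 0 in any library. Endothelial RNA was a small part of it. The 18 listed endothelial markers, among them Pecam1 and Cdh5, summed to 147 to 183 CPM in the WT libraries and to 154 to 190 CPM in the C3 KO libraries. None of the 18 was called different, with a median log2 fold change of 0.07 against 0.00439 over all tested genes. Of the 18, 13 had a log2 fold change above 0 and 5 below. When WT replicate 1 was left out, 1 was called higher, as was 1 with the replicate number as a block in the fit. Emcn had the smallest p among them (log2 fold change 0.53, edgeR adjusted p = 0.0851).

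Adm and Cxcr4 were lower in the libraries labelled C3 KO, and none was higher. The other 7 did not pass the test. The threshold was an adjusted p of 0.05 (Benjamini-Hochberg) in edgeR's quasi-likelihood test over 15850 genes, which 14.3% of all genes passed, 5.98% with a lower and 8.33% with a higher level. At the share of all genes, 1.29 of 9 members would have been called, against the 2 observed, so the count stood near the background. The median log2 fold change of the members was −0.08, with 6 below and 3 above 0.

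Adm and Cxcr4 are shown first by the DNA before their start sites, because they are the members that were called. RefSeq promoter windows of build GRCm38.p6 were found for 8 of the 9 members, Pdgfb having no entry, and the 250 bases before the start were searched on both strands for the letters ACGTG and GCGTG, the core forms of the hypoxia response element. Capitals below mark GCGTG, which reads CACGC on the opposite strand. The Adm window is chr7:110627407-110627656 on the plus strand and the Cxcr4 window chr1:128592300-128592549 on the minus strand, each printed 5′ to 3′ in the direction of the gene.
Adm: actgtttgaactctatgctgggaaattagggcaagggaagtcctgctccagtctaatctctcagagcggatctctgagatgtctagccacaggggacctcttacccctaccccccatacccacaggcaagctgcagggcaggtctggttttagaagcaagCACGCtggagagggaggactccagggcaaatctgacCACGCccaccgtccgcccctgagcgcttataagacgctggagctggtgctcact
Cxcr4: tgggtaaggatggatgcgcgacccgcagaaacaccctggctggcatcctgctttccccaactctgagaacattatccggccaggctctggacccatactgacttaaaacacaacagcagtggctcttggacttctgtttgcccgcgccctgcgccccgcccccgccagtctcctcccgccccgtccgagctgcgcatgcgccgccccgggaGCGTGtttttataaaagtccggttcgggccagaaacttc
ACGTG was in none of the 8 member windows and in 16.6% of the 32851 windows of the table. GCGTG, a search added after the windows were seen, was in 6 of the 8, those of Adm, Cxcr4, Unc5b, Ramp3, Igfbp3 and Esm1, and in 28.2% of all windows. A match describes the letters only and is not a measured binding site.

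Levels can be compared between genes only per transcript length, for which the authors' RPKM values (reads scaled to transcript length and library total, turned back from log2) were used. Mcam, Cxcr4 and Ramp3 were the most abundant members, with means over the 8 libraries of 12.7, 12.4 and 12.3 RPKM. These 3 did not separate: Mcam was above Cxcr4 in 6 of 8 libraries and Cxcr4 above Ramp3 in 3 of 8. A gap followed, and Ramp3 was above Pdgfb (3.51 RPKM) in 8 of 8 libraries. Pdgfb, Igfbp3 (3.08 RPKM), Apln (2.93 RPKM) and Unc5b (2.89 RPKM) formed a middle group in which each stood above the next in 4 to 6 of 8 libraries. Adm averaged 1.86 RPKM and Esm1 0.489 RPKM, the lowest of the members.

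Of the secreted members, Adm encodes adrenomedullin, a vasodilator peptide that is induced by hypoxia and shapes vessel growth and lumen. Its reads were 60, 47, 57 and 71 in WT replicates 1 to 4, or 3.08, 2.74, 3.03 and 4.28 CPM. They were 52, 10, 28 and 33 in C3 KO replicates 1 to 4, or 2.65, 0.521, 1.58 and 1.88 CPM. The groups did not overlap, but only narrowly, since C3 KO replicate 1 lay just below WT replicate 2, and C3 KO replicate 2 was far below the rest. Adm was the only member without overlap, while 17.4% of all tested genes had none and 7.72% had none with C3 KO lower. The means were 3.28 ± 0.686 and 1.66 ± 0.881 CPM (SD, n = 4), a 1.97-fold lower level (log2 fold change −0.98 ± 0.32, SE; edgeR adjusted p = 0.0433). That value lay near the threshold. It was lost when any of 6 of the 8 libraries was left out, with edgeR adjusted p-values of 0.051 to 0.12. Without C3 KO replicate 2 the log2 fold change was −0.68 (edgeR adjusted p = 0.0772), and without WT replicate 3 it was −1.02 (0.0685).

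**Figure D1:**
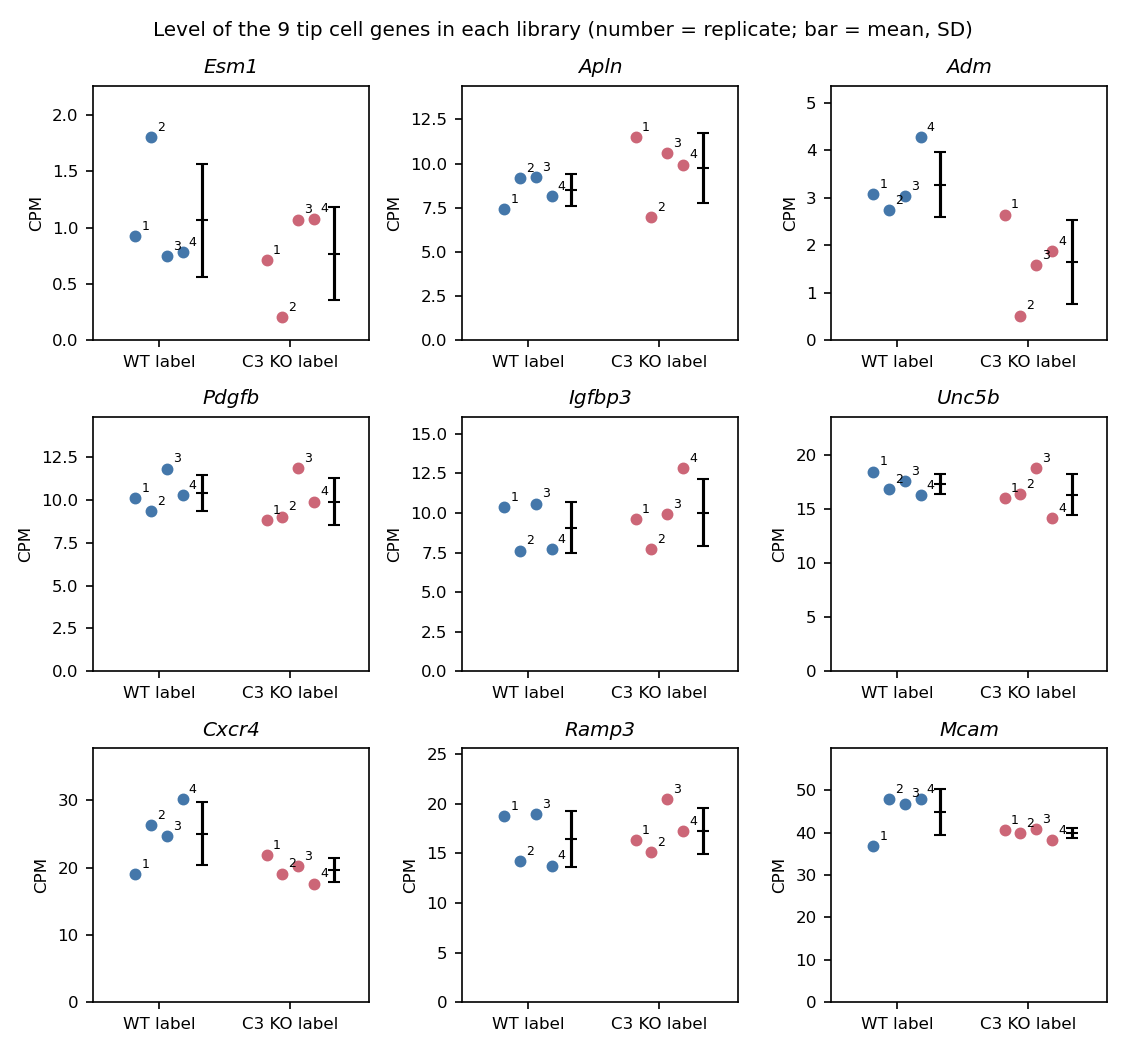
Level of each tip cell gene in CPM (vertical axis, from 0) for the 4 libraries labelled WT (blue) and the 4 labelled C3 KO (red); points carry the replicate number, and black bars give the mean and SD of each group. Adm is the only gene whose groups do not overlap, and C3 KO replicate 2 is the lowest of its group for Esm1, Apln, Adm, Igfbp3 and Ramp3.

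Apln encodes apelin, a peptide made by tip cells that acts on the receptor Aplnr of neighbouring endothelial cells. Its levels were 7.43, 9.20, 9.25 and 8.15 CPM in WT replicates 1 to 4 and 11.5, 6.98, 10.6 and 9.94 CPM in C3 KO replicates 1 to 4. Thus 3 libraries labelled C3 KO lay above every WT library, and C3 KO replicate 2 lay below all of them. The log2 fold change was 0.20 ± 0.14 (SE), did not pass (edgeR adjusted p = 0.387), and had a 95% interval of −0.10 to 0.49. Without C3 KO replicate 2 it was 0.33 (edgeR adjusted p = 0.0946), still short of the threshold.

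Esm1 encodes endocan, a secreted proteoglycan that is among the most restricted tip cell markers of the mouse retina. It was counted at 18, 31, 14 and 13 reads in WT replicates 1 to 4 and 14, 4, 19 and 19 reads in C3 KO replicates 1 to 4, the fewest of any member. In CPM these were 0.923, 1.80, 0.744 and 0.785 for WT and 0.713, 0.208, 1.07 and 1.08 for C3 KO, and the groups overlapped. The 4 reads of C3 KO replicate 2 have an exact 95% Poisson interval of 1.09 to 10.2 reads, and the 31 reads of WT replicate 2 one of 21.1 to 44.0, which cover counting error only. The log2 fold change was −0.47 ± 0.42 (SE, edgeR adjusted p = 0.498). Its 95% interval ran from −1.35 to 0.40, so a difference of the size seen for Adm lay within it. The log2 fold change was −0.12 without WT replicate 2 and −0.16 without C3 KO replicate 2.

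Igfbp3 encodes a secreted binding protein for insulin-like growth factors, and Pdgfb the growth factor with which tip cells recruit pericytes. Igfbp3 stood at 10.4, 7.63, 10.6 and 7.72 CPM in WT replicates 1 to 4 and at 9.62, 7.70, 9.93 and 12.8 CPM in C3 KO replicates 1 to 4. Pdgfb stood at 10.1, 9.31, 11.8 and 10.3 CPM in the former and at 8.81, 9.01, 11.8 and 9.89 CPM in the latter. Both genes overlapped widely between the groups. The 95% interval of the ratio of C3 KO to WT was 0.884 to 1.37 for Igfbp3 and 0.796 to 1.14 for Pdgfb, with edgeR adjusted p-values of 0.603 and 0.756.

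Among the receptors and surface proteins, Cxcr4 is the receptor for the chemokine Cxcl12 and is raised on sprouting endothelium. It was measured at 19.0, 26.3, 24.6 and 30.2 CPM in WT replicates 1 to 4 and at 21.8, 19.1, 20.2 and 17.6 CPM in C3 KO replicates 1 to 4. WT replicate 1 lay within the range of the C3 KO libraries, and the other 3 WT libraries lay above it. The means were 25.0 ± 4.64 and 19.7 ± 1.76 CPM (SD, n = 4), a 1.27-fold lower level (log2 fold change −0.34 ± 0.11, SE; edgeR adjusted p = 0.0487). Without WT replicate 1 the log2 fold change was −0.46 (edgeR adjusted p = 0.00177), and without C3 KO replicate 1 the call also held (edgeR adjusted p = 0.0448). It was lost without any of the other 6 libraries, at edgeR adjusted p-values of 0.0823 to 0.146, and by limma-voom (adjusted p = 0.0777).

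Mcam, the adhesion molecule CD146 of endothelium and pericytes, was also low in WT replicate 1, which lay below every C3 KO library, while the other 3 WT libraries lay above them all. It stood at 36.8 CPM in WT replicate 1, at 47.9, 46.8 and 47.9 CPM in WT replicates 2 to 4, and at 40.5, 39.8, 40.7 and 38.2 CPM in C3 KO replicates 1 to 4. The log2 fold change of −0.17 ± 0.08 (SE) did not pass (edgeR adjusted p = 0.142). Without WT replicate 1 it was −0.25 and did (edgeR adjusted p = 0.00901).

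Unc5b is a netrin receptor that carries a repulsive signal on tip cell filopodia, and Ramp3 is the accessory protein with which the receptor Calcrl binds adrenomedullin. Unc5b stood at 18.5, 16.8, 17.5 and 16.3 CPM in WT replicates 1 to 4 and at 16.0, 16.3, 18.8 and 14.1 CPM in C3 KO replicates 1 to 4. Ramp3 stood at 18.8, 14.2, 19.0 and 13.8 CPM in the former and at 16.3, 15.1, 20.5 and 17.2 CPM in the latter. Both genes overlapped between the groups. The 95% interval of the ratio of C3 KO to WT was 0.82 to 1.09 for Unc5b and 0.883 to 1.24 for Ramp3 (edgeR adjusted p = 0.627 and 0.762).

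Without WT replicate 3, none of the 9 members was called. Besides the value of Adm given above, the log2 fold change was then −0.36 for Cxcr4, −0.16 for Mcam, −0.62 for Esm1, −0.08 for Unc5b and −0.011 for Pdgfb, and 0.23 for Apln, 0.21 for Igfbp3 and 0.13 for Ramp3. Each kept the sign it had with all 8 libraries. The edgeR adjusted p was 0.0823 for Cxcr4 and 0.259 to 0.971 for the 7 members that had not passed with all libraries.

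The members did not vary as one block between libraries of the same label. C3 KO replicate 2 was the lowest of its group for 5 of 9 members. Its deviation from the group mean in log2 CPM was −1.29 for Esm1, −1.30 for Adm and −0.45 for Apln, while the 18 endothelial markers deviated by −0.07 on average. C3 KO replicate 3 was above its group mean for 9 of 9 members, and its endothelial markers deviated by 0.14. Under the WT label, Igfbp3 and Ramp3 were high in replicates 1 and 3 (deviations of 0.21 to 0.24) and low in replicates 2 and 4 (−0.19 to −0.24). Cxcr4 and Mcam were low in WT replicate 1 alone among these 4 libraries, at −0.37 and −0.28, although that library had the highest endothelial markers of its group (0.17).

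**Figure D2:**
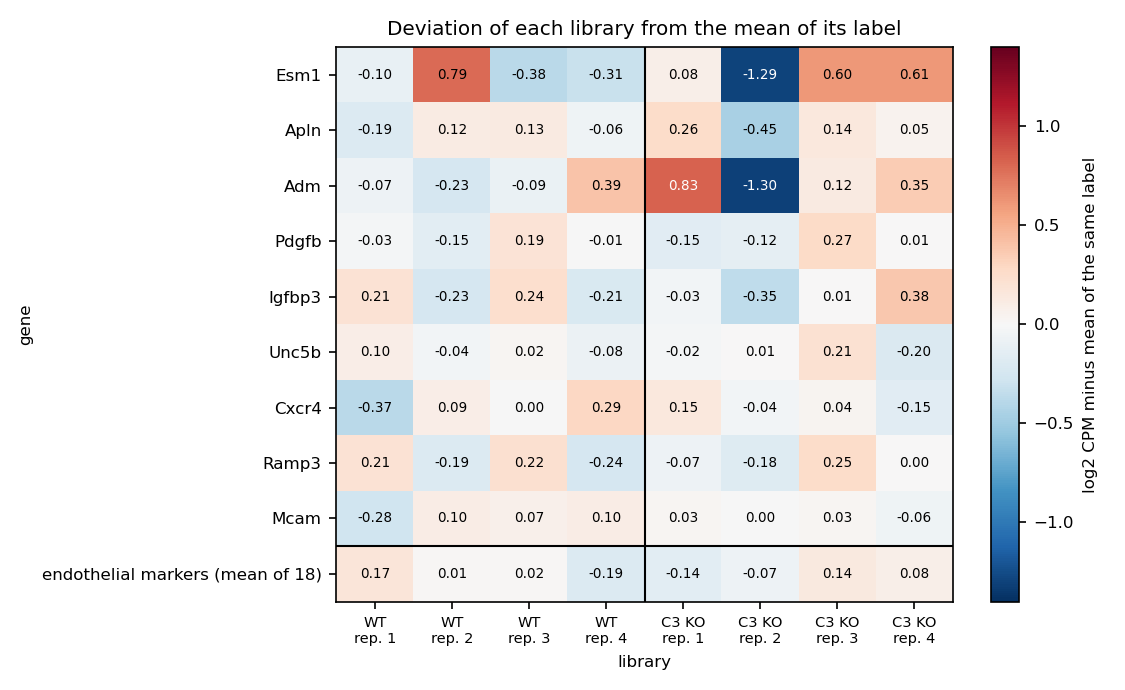
Log2 CPM of each member (rows) in each library (columns) minus the mean of the libraries with the same label, with the mean over 18 endothelial markers in the bottom row; red is above and blue below the group mean. Esm1 (−1.29) and Adm (−1.30) in C3 KO replicate 2 are the lowest cells of the plot, and the endothelial row spans −0.19 to 0.17.

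To set the members against the amount of endothelial RNA, the mean log2 CPM of the 18 endothelial markers was subtracted from that of each member in each library. On that scale Adm stood at −1.25, −1.26, −1.12 and −0.43 in WT replicates 1 to 4 and at −1.24, −3.44, −2.22 and −1.94 in C3 KO replicates 1 to 4. C3 KO replicate 1 now lay level with WT replicates 1 and 2, so the groups overlapped, and the difference of the means was −1.19. Cxcr4 ran from 1.33 to 2.36 under the WT label and from 1.22 to 1.75 under the C3 KO label, with a difference of the means of −0.42. Before the subtraction the differences of the mean log2 CPM were −0.33 for Cxcr4 and −1.11 for Adm, so both grew in size. All 9 members overlapped between the labels when expressed this way. With the same endothelial mean as a covariate in the edgeR test, both log2 fold changes were instead smaller in size. Cxcr4 had −0.23 (edgeR adjusted p = 0.138), against −0.34 without the covariate. Adm had −0.87 (edgeR adjusted p = 0.0889), against −0.98 without it. No member passed in that fit, which called 10.7% of all genes.

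The ligands, receptors and partners of the members formed a list of 23 genes, of which 22 were measured. Among these, 3 were higher in the libraries labelled C3 KO and none lower, beside the 8.33% of all genes called higher, with a median log2 fold change of 0.07. Igf1, a growth factor bound by Igfbp3, stood at 62.2, 54.3, 57.9 and 50.6 CPM in WT replicates 1 to 4 and at 77.6, 72.7, 80.2 and 79.8 CPM in C3 KO replicates 1 to 4. The groups were well apart (log2 fold change 0.46, edgeR adjusted p = 3.76e-05). Pdgfra, a receptor of platelet-derived growth factors carried by retinal astrocytes, was higher, at 161 ± 17.0 and 214 ± 17.0 CPM (SD, n = 4; adjusted p = 0.000977 by edgeR). Flrt2, a membrane ligand of Unc5 receptors, rose as well, from a mean of 58.1 ± 2.86 to one of 69.4 ± 1.10 CPM (SD, n = 4; adjusted p = 0.00334 by edgeR). Leaving out 1 library at a time gave 3 to 5 higher (5 without WT replicate 1, 3 without WT replicate 3), and the count was also 5 by limma-voom, with non-robust dispersion and with the replicate block.

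The partners of the called members did not pass. Cxcl12, the ligand of Cxcr4, stood at 31.7, 20.8, 28.5 and 20.2 CPM in WT replicates 1 to 4 and at 37.1, 27.1, 35.7 and 32.9 CPM in C3 KO replicates 1 to 4. Its log2 fold change of 0.39 (edgeR adjusted p = 0.107) was opposite in sign to that of Cxcr4. The scavenger receptor for Cxcl12, listed under its older symbol Cxcr7, averaged 1.64 ± 0.452 and 1.51 ± 0.60 CPM (SD, n = 4, edgeR adjusted p = 0.827). Of the adrenomedullin receptor, Calcrl had a log2 fold change of 0.20 (edgeR adjusted p = 0.547) and Ramp2 one of −0.09 (0.696). Ramp1, whose product directs Calcrl towards a related peptide, was at most 1.12 CPM in any library.

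Aplnr, the receptor of Apln, and Pdgfrb did not pass, unlike Pdgfra above. Aplnr averaged 13.1 ± 1.92 and 13.5 ± 1.34 CPM (SD, n = 4), with a 95% interval of −0.20 to 0.28 for its log2 fold change. Pdgfrb, the pericyte receptor for Pdgfb, averaged 9.94 ± 1.24 and 10.2 ± 1.76 CPM (SD, n = 4), with an interval of −0.24 to 0.32. Their edgeR adjusted p-values were 0.867 and 0.891. Netrins and the other Unc5 receptors did not pass either: Ntn1 averaged 0.851 and 1.42 CPM (edgeR adjusted p = 0.182), and Unc5a, Unc5c and Unc5d had log2 fold changes of 0.10, 0.03 and 0.24 (edgeR adjusted p of 0.472, 0.805 and 0.0594).

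**Figure D3:**
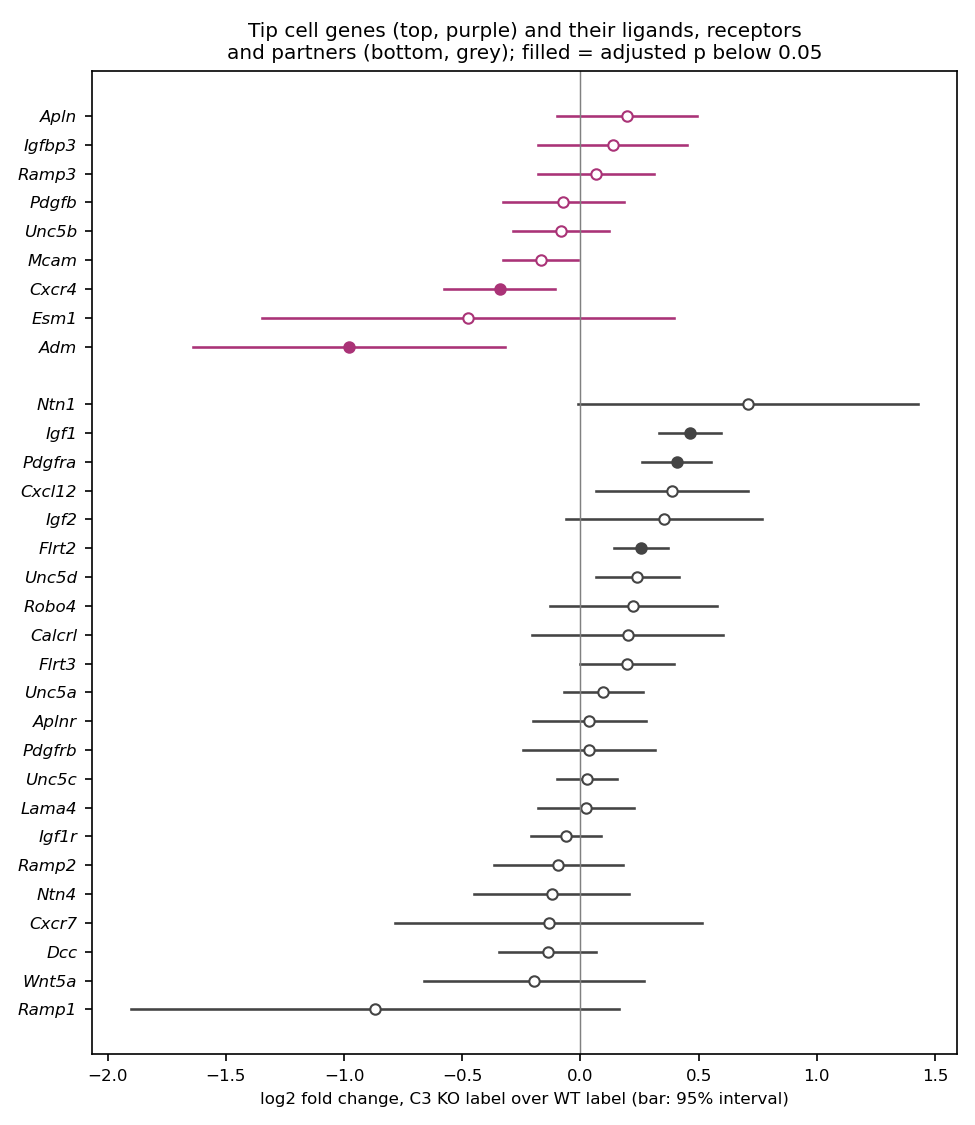
Log2 fold change of the libraries labelled C3 KO over those labelled WT (horizontal axis) with its 95% interval for the 9 members (purple, top) and 22 measured ligands, receptors and partners (grey, bottom); filled points have an adjusted p below 0.05. Adm and Cxcr4 are filled on the lower side and Igf1, Pdgfra and Flrt2 on the higher side, and Ramp1, Esm1 and Ntn1 have the widest intervals of those drawn.

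Other tip cell genes gave no common direction. Of 15 listed, 14 were measured, 1 was higher and none lower, and the median log2 fold change was 0.05. The gene that rose was Nid2, a nidogen of the basement membrane, with 234, 216, 276 and 213 reads in WT replicates 1 to 4 and 320, 352, 362 and 330 reads in C3 KO replicates 1 to 4 (edgeR adjusted p = 0.00188). Next by p was Cd34, a sialomucin of tip cell filopodia (log2 fold change 0.20, edgeR adjusted p = 0.0898). Plod1, a collagen-modifying hydroxylase, had a log2 fold change of −0.20 and Rasgrp3, an activator of Ras family proteins, one of 0.25 (edgeR adjusted p = 0.123 and 0.244). Among 8 stalk and phalanx genes, 1 was higher and 1 lower. Nrarp, a Notch target that limits Notch signalling in stalk cells and is also made by retinal progenitors, was lower, with means of 54.8 ± 9.29 and 37.1 ± 5.59 CPM (SD, n = 4; adjusted p = 0.0155 by edgeR). Tek, the angiopoietin receptor, was higher, with means of 9.46 ± 1.36 and 13.4 ± 2.37 CPM (SD, n = 4; adjusted p = 0.0151 by edgeR). The call on Tek was lost when replicate 4 of either label or replicate 3 of C3 KO was left out. It was also lost by limma on log2(RPKM + 1) or log2(RPKM + 0.1), and the call on Nrarp was lost with the replicate block.

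Some genes of other cells and states that can carry the same RNAs differed between the labels, and their part in the values of Adm and Cxcr4 was not tested. Of 20 hypoxia-inducible genes, a class to which Adm belongs, 7 were lower and none higher, beside the 5.98% of all genes called lower. Of the 20, 15 had a log2 fold change below 0 and 5 above, with a median of −0.14. Their summed level was 4258 to 4628 CPM in the WT libraries and 3847 to 4046 CPM in the C3 KO libraries. Ldha alone, at means of 1549 and 1333 CPM, was a large part of these sums. The oxygen-sensing hydroxylase Egln3 had the lowest fold change among the 4 with the smallest p (log2 fold change −0.86, edgeR adjusted p = 0.00619). Across the 12 microglia markers, 3 were higher and none lower, with sums of 159 to 203 and 203 to 244 CPM. Of 7 astrocyte markers 2 were higher, Pdgfra and Gfap (edgeR adjusted p = 0.00943), with sums of 428 to 452 and 453 to 520 CPM. They gave no common direction, with 4 log2 fold changes above 0 and 3 below. Most of the sums came from Pdgfra, at means of 161 and 214 CPM, and Slc1a3, at 205 and 185 CPM. Slc1a3 had a log2 fold change of −0.15 (edgeR adjusted p = 0.059). Pericyte and smooth muscle markers had 2 lower of 13, Vtn and Ndufa4l2, but no common direction, with 7 log2 fold changes above 0 and 6 below, a median of 0.03 and overlapping sums of 244 to 289 and 225 to 279 CPM. Leaving out 1 library at a time gave 3 to 6 lower hypoxia genes (3 without replicate 4 of either label and without replicate 1 of C3 KO) and 2 to 7 higher microglia markers (7 without WT replicate 1, 5 without C3 KO replicate 2). It gave 0 to 2 lower pericyte and smooth muscle markers (0 without replicate 2 of WT and without replicates 1 or 4 of C3 KO) and 2 to 4 higher astrocyte markers (4 without C3 KO replicate 2).

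Markers of tissue beside the retina also differed. Pigment epithelium and melanocyte markers summed to 307 to 340 CPM in the WT libraries and 428 to 454 CPM in the C3 KO libraries, with 8 of 12 higher and none lower. Fibroblast and sclera markers summed to 166 to 205 and 213 to 253 CPM, with 4 of 8 measured higher. Among the 4 was Pdgfra, also counted above as a partner and as an astrocyte marker. Its means of 161 and 214 CPM made up most of both sums, which therefore do not measure scleral tissue. Col1a2, Ogn and Fap, the rest of the 4, averaged 0.466 to 2.83 CPM under the WT label and 1.67 to 5.78 CPM under the C3 KO label. All 4 measured red blood cell genes were lower, with sums of 27.9 to 49.8 and 17.7 to 22.7 CPM. These counts of 8, 4 and 4 were the same without WT replicate 3. Of 3 lens markers tested, Cryba1 was called lower with overlapping groups and the other two had positive log2 fold changes. The call on Cryba1 was not stable, since no lens marker was called lower by DESeq2 or without any 1 of WT replicates 2, 3 and 4 and C3 KO replicates 3 and 4. No tested gene of these lists was at 0 in any library.

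When the mean log2 CPM of the Y-linked genes entered the fit, no member was called, beside 3.34% of all genes. Adm kept a log2 fold change of −0.96 with a larger SE of 0.47 (edgeR adjusted p = 0.288). Cxcr4 had −0.50 ± 0.16 (SE, edgeR adjusted p = 0.10) and Mcam −0.33 ± 0.10 (SE, edgeR adjusted p = 0.0816). Of the lists above, this fit called 1 hypoxia gene lower, 3 of the 22 partners higher, and none of the other tip cell, the stalk and phalanx, the pericyte or the lens genes. It still called 3 microglia, 1 astrocyte, 7 pigment epithelium and 3 fibroblast markers higher and 1 red blood cell gene lower. Under the WT label only replicate 3 had Y-linked RNA at the level of the C3 KO libraries, 75.8 against 74.8 to 88.2 CPM. The fit therefore separates Y-linked RNA from label mainly through that library, which also held 295 CPM of Xist. What it called is thus not a full adjustment for sex, and sex and label cannot be told apart here beyond this fit.

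**Figure D4:**
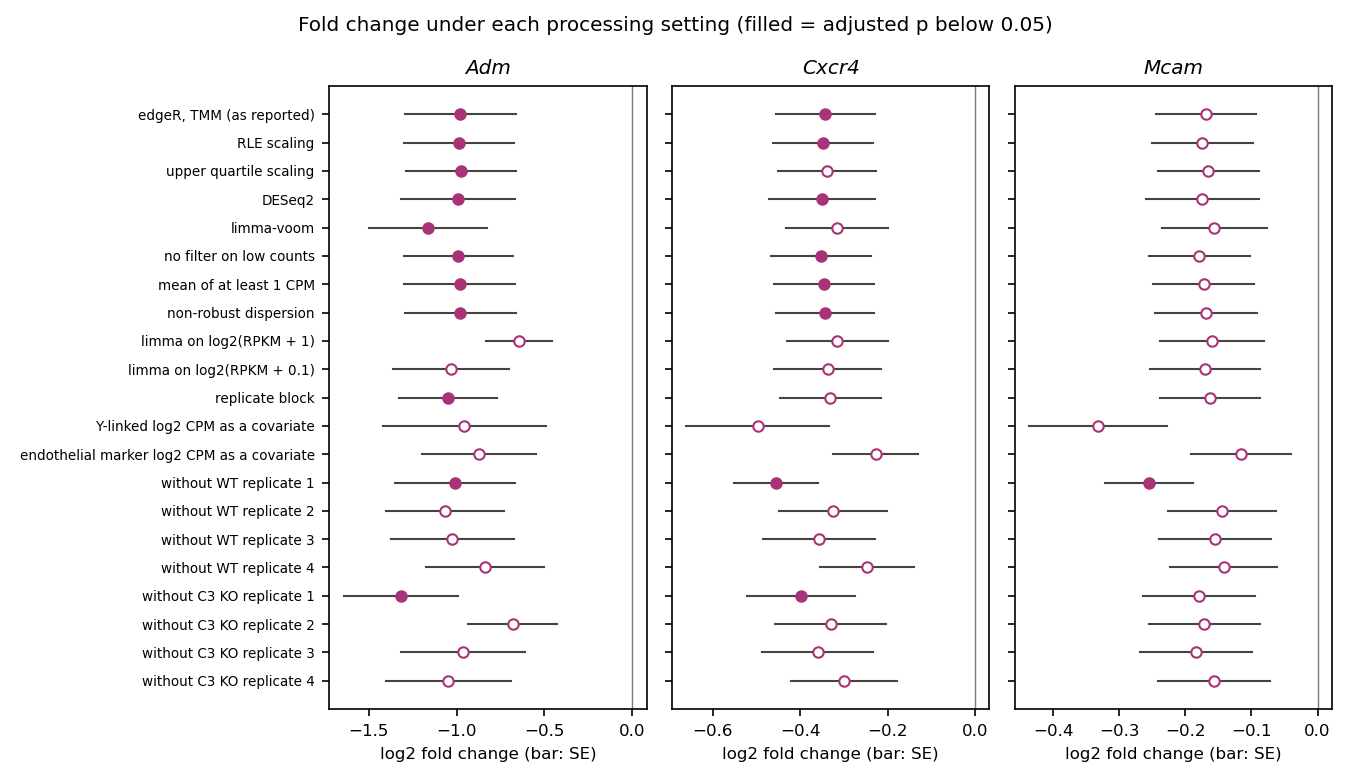
Log2 fold change with its SE (horizontal axis) of Adm, Cxcr4 and Mcam under the reported setting and 20 alternatives (rows); filled points have an adjusted p below 0.05. The sign is negative in every row for the 3 genes, Adm is called in 10 alternatives, Cxcr4 in 7 and Mcam in 1.

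For Esm1 and Adm the genes with the most similar pattern were sought among those with a mean of at least 1 CPM, by the root mean square difference of centred log2 CPM over the 8 libraries. Closest to Adm was Aldh1a1, a retinaldehyde dehydrogenase of the dorsal retina, at a difference of 0.45, against a root mean square of 0.81 for Adm around its own mean. Aldh1a1 stood at 65.2, 72.5, 71.8 and 72.9 CPM in WT replicates 1 to 4 and at 57.0, 32.0, 44.6 and 40.8 CPM in C3 KO replicates 1 to 4 (edgeR adjusted p = 0.0189). Like Adm, it was highest in replicate 1 and lowest in replicate 2 among the C3 KO libraries. It was picked from 15018 candidates for its likeness over these same libraries, so neither this order nor its p is separate evidence. D730039F16Rik and Gm17092 followed, at 0.46 and 0.47. Closest to Esm1 among 15019 candidates were Gypc, Pla2g3 and Gm6195, at 0.33, 0.34 and 0.36. Each of these was lowest in C3 KO replicate 2, at 0.521, 0.729 and 0.521 CPM, or 10, 14 and 10 reads. Esm1 deviated most in that library, so the choice itself favours genes that are low there.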

How the data were processed

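The authors deposited raw read counts for each gene, in whole numbers and not normalized. The submitters' processing notes name STAR, HTSeq and the builds mm9 and NCBIM37, and no strand setting is given, so an overlapping antisense gene cannot be told apart. The authors' second table holds log2 RPKM values. They equal edgeR's TMM-scaled log2 CPM with a prior count of 2 up to a constant per gene (largest deviation 4.05e-08), and were used for levels between genes and as an alternative. Counts were tested in R 4.3.3 with edgeR 4.0.16 (TMM, expression filter, robust quasi-likelihood, 4 against 4 libraries, no covariate) over all 15850 tested genes, and SE was taken from the F statistic. Alternatives used limma 3.58.1 and DESeq2 1.42.0. The procedure was tested on simulated data. Within a label, the chi-square per degree of freedom between libraries was at least 3.70. Members and lists were chosen with earlier results of these data known. Named genes are the members, all measured partners, C3, up to 4 genes of each other list by p, and the 3 genes most like Esm1 or Adm. Of the listed symbols, 3 entries were matched through older symbols. The promoter windows are from RefSeq, in a build other than the submitters'.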

Additional observations from a re-analysis of the deposited data

Results flagged for a closer look

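Within the 4 libraries of a label, 2 member values lay far from the other 3 by Dixon's test, among 18 groups checked, where chance flags about 1 in 20 groups. Esm1 was high in the library labelled WT replicate 2, at 1.80 CPM. Mcam was low in the library labelled WT replicate 1, at 36.8 CPM.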

How the results depend on the processing

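Across 20 alternatives, Adm, Cxcr4 and Mcam kept a negative sign. The count of members called lower, 2 as reported, was 1 with upper quartile scaling, with limma-voom and with the replicate block. It was 0 with limma on log2(RPKM + 1) or log2(RPKM + 0.1), with the Y-linked covariate and with the endothelial covariate. Leaving out 1 library gave 0 to 3 members lower and none higher. Over all genes, 1321 were called higher and 948 lower. These counts were 349 and 181 with the Y-linked covariate, 806 higher on log2(RPKM + 1), 803 higher on log2(RPKM + 0.1), and 761 to 1516 higher and 544 to 1027 lower without 1 library. Leaving out C3 KO replicate 3, C3 KO replicate 4 or WT replicate 2 lowered the count of higher genes by over 1.5 times, to 848, 761 and 861, and leaving out C3 KO replicate 4 lowered that of lower genes to 544. The cause was not tested. Same-numbered libraries correlated at −0.06 to 0.09 in their deviations, and 2 of 8 correlated best with their own number, so the numbers do not pair them. With the replicate block Cxcr4 had an edgeR adjusted p of 0.0635 and Adm one of 0.0107, with 1415 genes higher and 985 lower. Ramp3 changed sign in 4 of 20 alternatives and Igfbp3 in 1 of 20, none called. Depth was lowest for Esm1, at 4 to 31 reads per library, and Adm, at 10 to 71.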
